A study of Danio rerio with 6 samples.

Results

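The genes described here encode the machinery that brings newly made proteins into the endoplasmic reticulum (ER), glycosylates them and folds them there, together with the general chaperones of the cytosol. They were chosen by the first letters of their symbols (for example pdia, sec61, ssr, dnaj, hspa, hsp90, calr, rpn1 and cct2 to cct8), not by a measured value. Of the 6502 rows that carried a gene ID, 81 matched. By role, 25 act in translocation and early glycosylation, 23 act in ER folding and retrieval, and 3 are transcription factors of the unfolded protein response (UPR). A further 12 are cytosolic chaperones, 4 are mitochondrial, and 12 are J-domain proteins of the cytosol, the nucleus or a location that was not assigned. The remaining 2, *srpk1b* and *tcp11l2*, matched by letters only and have no known part in ER protein folding.

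Secretory cells thread proteins through the Sec61 channel, guided by the signal recognition particle, and the oligosaccharyltransferase attaches sugars as they enter. Inside the ER, BiP (*hspa5*), GRP94 (*hsp90b1*), the lectins calreticulin and calnexin and the protein disulfide isomerases fold the chain. When folding falls behind, the UPR raises the production of these chaperones, in part through Xbp1, and it also acts through Atf4 and Chop (*ddit3*). Hepatocytes secrete most plasma proteins and depend on this machinery, and acinar cells of the exocrine pancreas are known for a very high ER content.

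Livers were dissected from zebrafish (*Danio rerio*) at 7 days post fertilization (dpf), and 15 were pooled for each of 6 libraries. In the 3 cr*keap1a/b* pools, the larvae were crispants that had received Cas9 with guide RNAs against *keap1a* and *keap1b*, the fish paralogs of the Nrf2 repressor Keap1, as single-cell embryos, so their knockout is mosaic. The other 3 pools were wild type (WT). Clutch siblings served as controls, per the study's methods. Whether these siblings were injected with anything is not given in the sources used here. A second code in the labels carries a number and a letter, with no stated meaning. The letter is a for replicates 1 and 2 and b for replicate 3 of each group. The number is 2, 1 and 2 for WT replicates 1, 2 and 3, and 1, 2 and 2 for crispant replicates 1, 2 and 3. Because the labels name separate pools but not separate clutches, p-values take in only the spread between pools. The tests share this spread across genes, so a p-value does not measure the spread of 1 gene alone.

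QuantSeq reads come from the 3′ end of each transcript, so levels of different genes can be set side by side without a length correction. Levels are given as CPM, counts per 1000000 after TMM scaling, and errors of levels are the SD over 3 pools. The libraries held 9491003 to 15030262 counts in rows with an ID, so that 3 counts, the floor for detection, equalled 0.20 to 0.316 CPM before TMM scaling. Both replicate 3 libraries stood apart, with 53.2% (WT) and 47.6% (crispant) of all genes at 0 counts, whereas the share was 2.83% to 13.2% elsewhere. The targeted genes did not separate the groups, since *keap1a* had 375, 0 and 379 counts in the WT pools and 291, 307 and 0 in the crispant pools. For *keap1b* the counts were 314, 261 and 10 in WT pools and 489, 309 and 0 in crispant pools. Tags at the 3′ end do not measure the edit. The hepatocyte markers *fabp10a*, *tfa*, *apoa1b* and *fgb* were present in every library, as were the pancreatic markers *prss1*, *cpa5* and *ela2l*.

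The chosen genes were better covered than most in the sparse libraries. At 0 counts were 23 of the 81 (28.4%) in WT replicate 3 and 27 (33.3%) in crispant replicate 3, and between 0 and 6 in each other library. In all 6 libraries, 45 of them (55.6%) had counts, beside 29.8% of all genes with an ID. A further 8 were missing from WT replicate 3 but not from its crispant counterpart, and 12 the other way round. For these genes, a fold change over all 6 libraries rests largely on which of the replicate 3 libraries is empty. The median difference between replicates on the log2 scale was 0.776 between WT replicates 1 and 2 and 0.468 between crispant replicates 1 and 2, and 1.38 to 1.87 in pairs that include replicate 3.

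**Figure D1:**
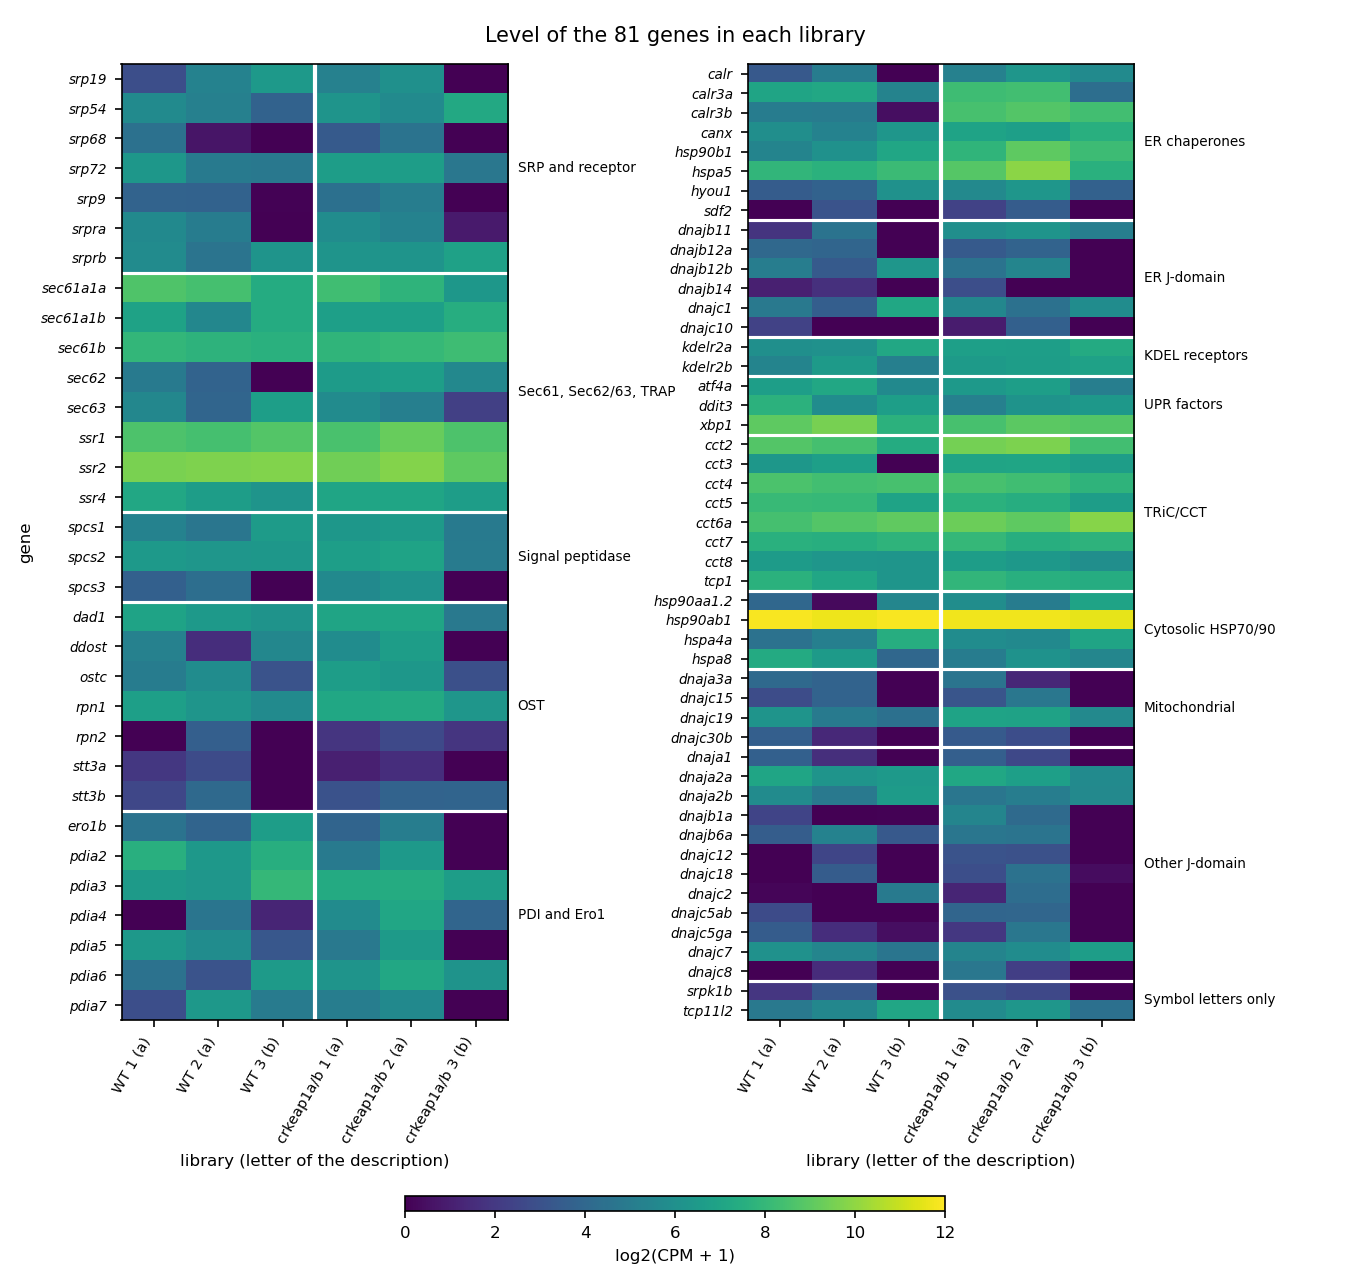
Heat map of log2(CPM + 1) for the 81 genes (rows, grouped by role) in the 6 libraries (columns, with the letter of the description). The replicate 3 columns hold most of the empty cells, 23 genes in WT and 27 in cr*keap1a/b*, and *hsp90ab1* is the brightest row in every library.

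In WT livers these genes differed widely in level. The cytosolic HSP90 gene *hsp90ab1* (Entrez 30573) was highest by far, at 3729, 3324 and 3770 CPM in WT pools and 3454, 3400 and 2978 CPM in crispant pools. It took 32.7% to 35.7% of the summed CPM of the 81 genes in WT libraries and 23.8% to 29.8% in crispant libraries. Its own level overlapped between groups, with a log2 fold change of −0.18 ± 0.14 (SE; limma-voom, adjusted p = 0.804). Next in WT came *ssr2*, a subunit of the TRAP complex that sits beside the Sec61 channel, with 808 ± 45.6 CPM (SD, n = 3). Neither gene's WT range overlapped with that of the next gene down. Below them, *xbp1*, *cct6a*, *ssr1*, *cct4*, *cct2*, *sec61a1a* and *hspa5* followed with WT means from 489 down to 242 CPM, and in this stretch each range overlapped with its neighbour's. Of the rest of the range, 39 genes had a WT mean between 10 and 100 CPM, 22 between 1 and 10 CPM, and 1 under 1 CPM.

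Whether loss of Keap1 changed these genes was asked with limma-voom over the whole table, in which 6386 genes were tested and 80 of the 81 among them. The filter on low counts left out *dnajc10*. None of the 80 had an adjusted p under 0.05 over the 6 libraries, where 0.595% of all genes were called higher and 0.595% lower. At an unadjusted p under 0.05, limma-voom gave 4 higher (*calr3b*, *hsp90b1*, *cct2* and *cct3*) and 1 lower (*pdia2*), beside 4.9% and 2.71% of all genes, 7.61% together. edgeR called 0 of the 80, and 0.251% of all genes higher and 0.094% lower. DESeq2 called *calr3b* alone, beside 1.58% of all genes higher and 0.689% lower, and so did limma with a trend, beside 0.423% and 0.345%. The median log2 fold change of the 80 was 0.33, beside 0.36 over all genes tested, and 63.7% were positive, beside 57.0%. For 7 of the 80 every crispant pool lay above every WT pool, beside 8.39% of all genes, and for 0 below, beside 5.0%. Over all 6 libraries the 80 genes as a whole thus lay where the table as a whole lay. With scaling by library size only, the median of all genes was 0.57, so small positive values are not read as a direction.

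Within the 4 libraries of letter a, where fewer genes were at 0, more genes were called. All 81 genes were tested there, and limma-voom called 7 higher (*calr3b*, *hsp90b1*, *hspa5*, *calr3a*, *pdia6*, *sec62* and *cct2*) and 0 lower. These 7 are 8.64% of the 81, beside 2.31% of all genes called higher and 2.15% called lower in that fit. Both crispant pools lay above both WT pools for 36 of the 81 and below for 6, beside 23.8% and 19.5% of all genes. The median log2 fold change was 1.25 for the 23 ER folding genes, 0.69 for the 25 translocation genes and 0.26 for the 12 cytosolic chaperones, beside 0.21 over all genes. It was 2.47 for the 12 other J-domain genes, of which 6 were at 0 in a WT pool of letter a and 0 were called, 0.76 for the 4 mitochondrial genes and −0.51 for the 3 UPR factors. Over all 6 libraries the medians were 0.46 for ER folding, 0.315 for translocation and 0.10 for cytosolic genes, beside 0.36 over all genes. For the other J-domain genes, the mitochondrial genes and the UPR factors they were 0.81, 0.47 and −0.29. Differences between roles were not tested. edgeR on these 4 libraries called *calr3b* and *hsp90b1*, beside 1.38% of all genes called higher and 0.48% lower, and gave the other 5 genes adjusted p-values from 0.0701 to 0.155. With so few pools, the limma-voom p-values of letter a rest on a spread shared across genes. A very small value there does not show that a gene's own pools were close.

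The letter b libraries, with 1 pool per group, allow no test. There, 46 of the 81 genes were above the floor in both, of which 20 were higher and 26 lower in the crispant pool. Their median log2 ratio of CPM was −0.17, beside −0.096 over 1855 genes. As a ratio of mean CPM in letter a, the median was 0.475 over the 69 genes above the floor in all 4 libraries, beside −0.042 over 4304 genes. The shift seen in letter a was thus absent from the values of letter b, though the sets of genes differ. Whether the letters differ was not tested. Leaving out WT replicate 1, 2 or 3, or crispant replicate 1, 2 or 3, gave 0, 0, 2, 0, 0 and 5 of the genes called higher by limma-voom and 0 lower each time. The shares of all genes called higher were 0.0%, 0.0%, 0.432%, 0.14%, 0.0% and 1.93% in that order, and 0.0155%, 0.062%, 1.09%, 0.341%, 0.0155% and 0.571% were called lower. Without WT replicate 3 the genes were *calr3b* and *hsp90b1*, and without crispant replicate 3 *hspa5*, *calr3a* and *cct2* joined them.

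**Figure D2:**
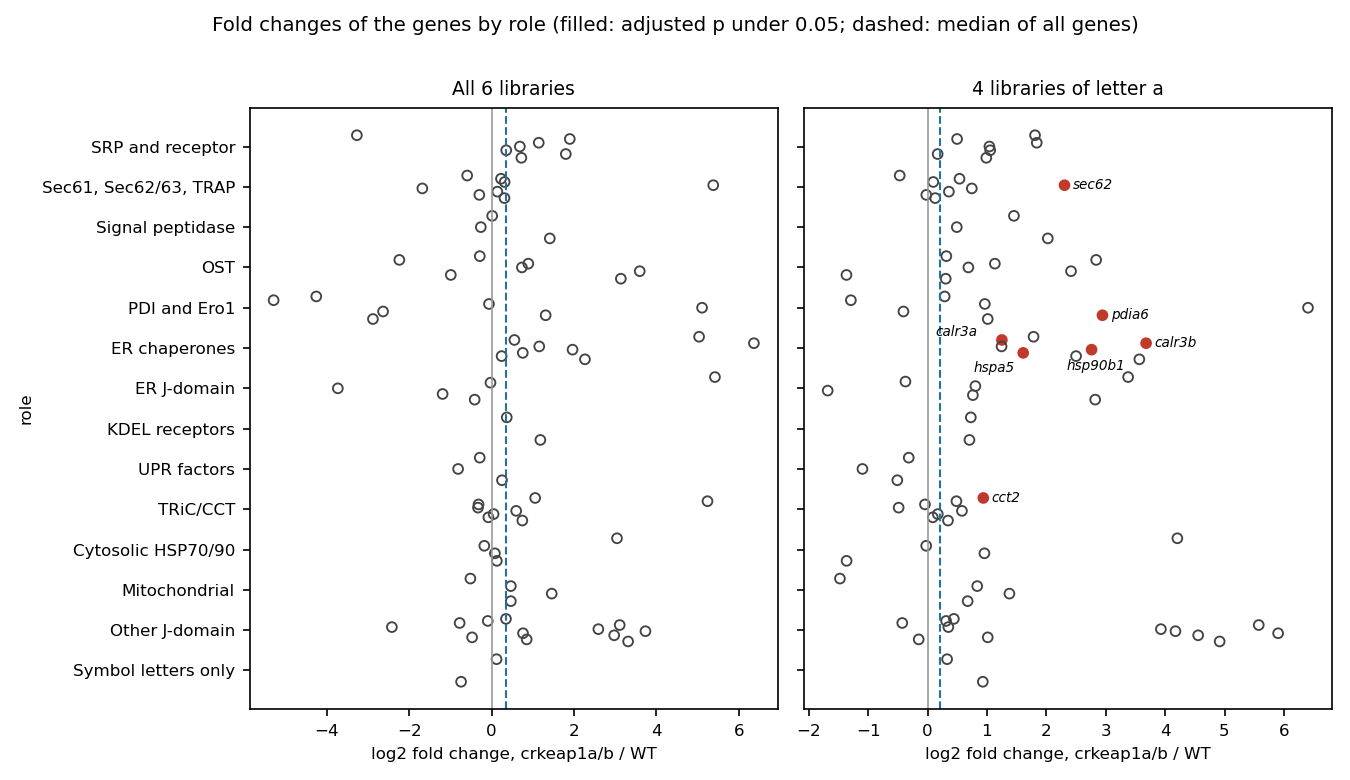
Log2 fold change of each gene (x axis), grouped by role (y axis), from limma-voom on all 6 libraries (left, 80 genes) and on the 4 libraries of letter a (right, 81 genes). Filled points have an adjusted p under 0.05 and the dashed line is the median of all genes tested; the 7 filled points are all on the right panel, and 4 of them are ER chaperones.

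The luminal and lectin chaperones of the ER stood higher in crispant livers than in WT livers as a summed level. For the 8 genes of this role, the summed CPM was 519, 535 and 607 in WT pools and 1554, 2520 and 1094 in crispant pools. The sums did not overlap, and the ratio of their means was 3.11-fold, or 3.87-fold within letter a and 1.80-fold within letter b. All 8 log2 fold changes were positive over the 6 libraries and within letter a, beside 57.0% and 55.5% of all genes. Their median was 1.56 over the 6 libraries, which include those of letter a, and 2.14 within letter a. Over the 6 libraries *hyou1* was at 0.24, below the median of 0.36 for all genes. The values of *hyou1* and *calr3a* turned negative when certain single libraries were left out. In letter b the 8 genes divided. The crispant pool was higher for *calr3b*, *hsp90b1*, *canx* and *calr* and lower for *hspa5*, *calr3a* and *hyou1*. *sdf2* was at 0 in both pools. Of the higher genes, *calr3b* and *calr* had 6 and 0 counts in WT replicate 3, and 328 and 53.1 CPM in crispant replicate 3. The ratio within letter b thus rests in part on the nearly empty WT values of *calr3b* and *calr*. Since *hspa5*, *hsp90b1* and *calr3b* made up 55.5% to 75.9% of the sum, it describes mainly these 3 genes. For all 23 ER folding genes, the summed CPM was 1122, 1101 and 1673 in WT pools and 2289, 3598 and 1649 in crispant pools. That wider sum overlapped between groups, with crispant replicate 3 just below WT replicate 3.

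*calr3b* (Entrez 321315), a calreticulin gene, differed most. Its counts were 307, 248 and 6 in WT pools and 3980, 5507 and 4926 in crispant pools, equal to 32.1, 30.4 and 0.35 CPM and to 357, 438 and 328 CPM. Every crispant pool was thus far above every WT pool, and WT replicate 3 was almost empty. Over all libraries the log2 fold change was 6.37 ± 2.19 (SE; limma-voom, adjusted p = 0.193). Within letter a it was 3.68 ± 0.53 (SE; limma-voom, adjusted p = 5.64e-10). Over all libraries edgeR gave an adjusted p of 0.0913, limma with a trend 0.015 and DESeq2 0.00106. Whether the gene was called therefore varied with the test, while its direction did not.

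Calreticulin binds calcium and holds glycoproteins for refolding, and 3 of its genes were in the table. *calr3a* (Entrez 30248) was at 126, 147 and 40.8 CPM in WT pools and 307, 331 and 19.2 CPM in crispant pools. Replicate 3 was lowest in each group, and the groups overlapped. Its log2 fold change was 0.55 ± 0.83 over all libraries (SE; limma-voom, adjusted p = 0.980) and 1.25 ± 0.35 within letter a (SE; limma-voom, adjusted p = 0.00989). *calr* (Entrez 325317) had 88, 259 and 0 counts in WT pools and 413, 988 and 798 in crispant pools, without overlap after scaling, and passed in neither fit.

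As a family the calreticulins reached 168, 209 and 41.1 CPM in WT pools and 701, 847 and 400 CPM in crispant pools, so that the totals did not overlap in either letter. The makeup of the family differed as well. *calr3a* supplied most of the family's counts in every WT library, up to 99.1% in replicate 3, whereas *calr3b* supplied 51.0% to 81.9% in crispant libraries and 0.851% to 19.2% in WT libraries. The shares of 99.1%, 0.851% and 81.9% come from the sparse replicate 3 libraries. Within letter a *calr3b* supplied 19.2% and 14.5% in WT pools and 51.0% and 51.7% in crispant pools. Such paralogs can share reads, so the division within the family is uncertain.

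**Figure D3:**
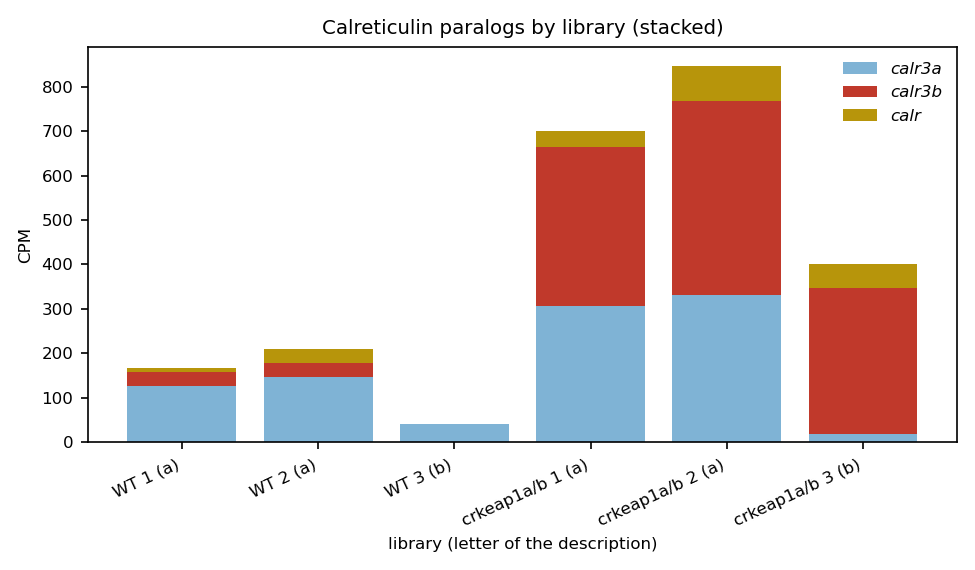
Stacked CPM of the calreticulin genes *calr3a*, *calr3b* and *calr* in each library (bars). The family reaches 41.1 to 209 CPM in WT and 400 to 847 CPM in cr*keap1a/b*, and *calr3b* makes up the largest part of every cr*keap1a/b* bar.

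*hsp90b1* (Entrez 386590) encodes GRP94, the HSP90 of the ER. It was at 41.2, 66.6 and 138 CPM in WT pools and 229, 512 and 300 CPM in crispant pools, higher in the crispants in letter a and in letter b. The log2 fold change was 1.97 ± 0.72 (SE; limma-voom, adjusted p = 0.268), and 2.76 ± 0.44 within letter a (SE; limma-voom, adjusted p = 5.83e-08), where edgeR gave 0.0211. With 1 pool left out at a time, the value ran from 1.63 to 2.68.

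*hspa5* (Entrez 378848), the ER HSP70 known as BiP and a classical UPR target, was at 239.8, 200.4 and 285.5 CPM in WT pools and 449, 962 and 195.5 CPM in crispant pools. Both crispant pools of letter a were above every WT pool, and the crispant pool of letter b was below every WT pool. The log2 fold change was 0.76 ± 0.50 over all libraries (SE; limma-voom, adjusted p = 0.755). It was 1.61 ± 0.30 within letter a (SE; limma-voom, adjusted p = 9.3e-06), but edgeR gave 0.0701 there.

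*canx* (Entrez 406757), the membrane-bound lectin calnexin, had 59.9, 39.6 and 77.2 CPM in WT pools and 122, 110 and 186 CPM in crispant pools. It was higher in every crispant pool and in both letters, and yet it passed in neither fit, with a log2 fold change of 1.25 ± 0.48 within letter a (SE; limma-voom, adjusted p = 0.142, and 0.792 over all libraries). *hyou1*, a nucleotide exchange factor for BiP, was at 10.3, 12.5 and 65.4 CPM in WT pools and 48.5, 79.0 and 12.1 CPM in crispant pools. Its order was opposite in the letters, and it passed in neither fit. *sdf2* was at or below 10.2 CPM in every library.

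**Figure D4:**
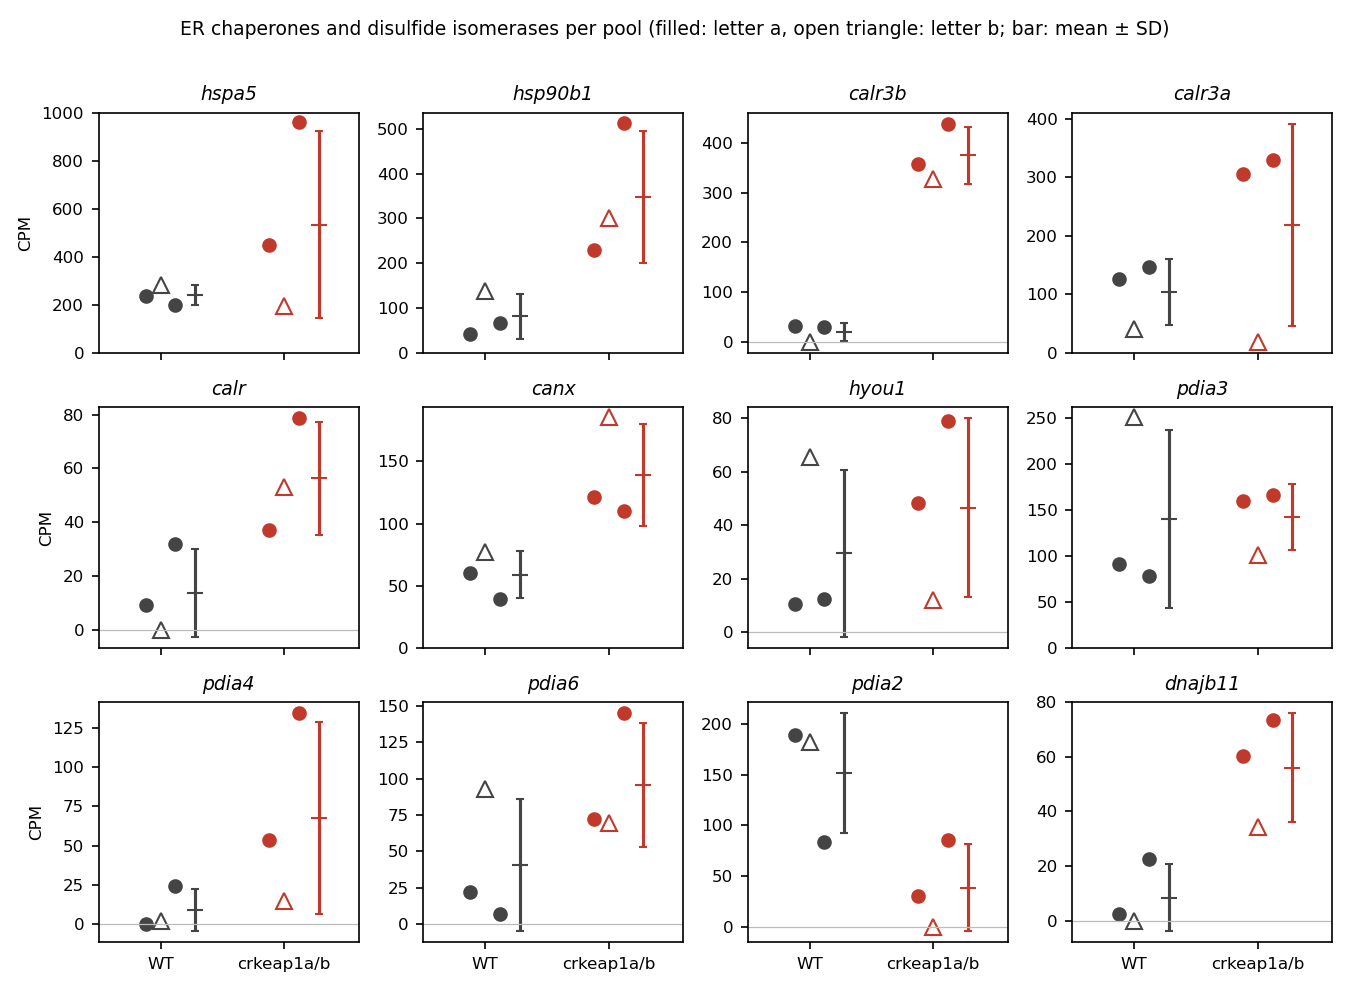
CPM of 12 ER folding genes in each pool (filled circles: letter a, open triangles: letter b), with the mean ± SD over 3 pools beside them. *calr3b*, *hsp90b1*, *calr*, *canx* and *dnajb11* have every crispant pool above every WT pool. They are the only 5 such among the 22 ER folding genes tested, beside 8.39% of all genes. *calr* and *dnajb11* are at 0 in WT replicate 3. For *hspa5*, *calr3a*, *hyou1*, *pdia3* and *pdia6* the triangles go against the circles.

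The protein disulfide isomerases, which form and rearrange disulfide bonds, did not move as a group. Of the 7 genes of this role, which include the oxidase *ero1b*, 2 had positive and 5 negative log2 fold changes over all libraries, with a median of −2.64. Within letter a 5 were positive, with a median of 0.97. In crispant replicate 3, 4 of them (*ero1b*, *pdia2*, *pdia5* and *pdia7*) were at 0 counts, and for all 4 the WT and crispant pools of letter a overlapped.

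*pdia6* (Entrez 322160) was at 21.99, 7.35 and 92.6 CPM in WT pools and 72.5, 145 and 69.8 CPM in crispant pools. It was higher in both crispant pools of letter a and lower in that of letter b. Within letter a its log2 fold change was 2.95 ± 0.86 (SE; limma-voom, adjusted p = 0.0171), and over all libraries 1.31 ± 1.29 (SE; limma-voom, adjusted p = 0.917). *pdia4* (Entrez 554998) had 0, 196 and 24 counts in WT pools and 597, 1693 and 214 in crispant pools. After scaling, WT replicate 2 at 24.0 CPM exceeded crispant replicate 3 at 14.2 CPM, and the log2 fold change of 5.11 ± 2.92 did not pass (SE; limma-voom, adjusted p = 0.735). *pdia3* (ERp57), the partner of calnexin and calreticulin, had close means, 140 ± 96.5 CPM in WT pools and 143 ± 36.1 CPM in crispant pools (SD, n = 3 each). Its order was opposite in the letters, at 91.0 and 78.4 CPM in WT and 160 and 167 CPM in the crispants in letter a. In letter b it was at 251.5 CPM in WT and 101 CPM in the crispant pool, and it passed in neither fit.

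*pdia2* (Entrez 394023) had the most negative value among these genes. In mammals this isomerase is made chiefly by the pancreas. It was at 190, 83.6 and 182 CPM in WT pools and 29.99, 85.7 and 0 CPM in crispant pools, so that the replicate 2 pools of both groups were level. The log2 fold change was −5.30 ± 2.52 (SE; limma-voom, adjusted p = 0.594), and −1.29 ± 0.45 within letter a (SE; limma-voom, adjusted p = 0.081). Markers of the exocrine pancreas, *pdia2* not counted, were lower as well. All 15 in the table had negative log2 fold changes, of which 9 were called lower by limma-voom and 2 by edgeR, beside 0.595% and 0.094% of all genes. Their summed CPM was 26520 to 41980 in WT pools and 8729 to 12510 in crispant pools. The trypsin gene *prss1* fell by 1.45 on the log2 scale (limma-voom, adjusted p = 5.83e-11). In pooled tissue, fewer cells of a type and less RNA per cell cannot be told apart, and the part of pancreatic tissue in the values of *pdia2* and of other ER genes was not tested.

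J-domain proteins steer HSP70 chaperones to their substrates. *dnajb11* (Entrez 386709), known in mammals as ERdj3, is a cofactor of BiP. It had 24, 184 and 0 counts in WT pools and 670, 926 and 515 in crispant pools. Of the 6 ER J-domain genes it was the only one with every crispant pool above every WT pool, beside 8.39% of all genes. Its log2 fold change was 5.42 ± 2.85 (SE; limma-voom, adjusted p = 0.682), or 3.38 ± 1.32 within letter a (SE; limma-voom, adjusted p = 0.153). *dnajc1* and *dnajb12b* overlapped between groups, the first at 59.4 ± 70.0 and 41.1 ± 18.1 CPM and the second at 40.5 ± 35.6 and 22.2 ± 21.8 CPM in WT and crispant pools (SD, n = 3 each).

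The KDEL receptors return escaped chaperones from the Golgi to the ER. *kdelr2a* was at 91.1 ± 45.8 CPM in WT pools and 124 ± 32.4 CPM in crispant pools (SD, n = 3 each). *kdelr2b* was at 41.2, 93.2 and 35.7 CPM in WT pools and 92.1, 102 and 117 CPM in crispant pools, where only 1 crispant pool fell within the WT range. Neither gene passed in either fit.

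Most of the entry machinery of the ER overlapped between groups. For the Sec61 channel, Sec62, Sec63 and the TRAP subunits, the summed CPM was 1923 to 2146 in WT pools and 1639 to 2330 in crispant pools. *ssr2* was at 755, 830 and 838 CPM in WT pools and 679, 866 and 515 CPM in crispant pools, with a log2 fold change of −0.30 ± 0.32 (SE; limma-voom, adjusted p = 0.949). Its partner *ssr1* was at 399.8 ± 46.9 and 459 ± 119 CPM, and *ssr4* at 107 ± 36.4 and 122 ± 18.5 CPM (SD, n = 3 each). All 3 TRAP subunits overlapped between groups. The channel subunit *sec61a1a* was at 306 ± 127 and 209.6 ± 122 CPM, its paralog *sec61a1b* at 109.5 ± 58.8 and 131 ± 37.4 CPM, and *sec61b* at 219.9 ± 25.1 and 266 ± 40.6 CPM (SD, n = 3 each), again with overlap.

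Every crispant pool lay above every WT pool for 2 of the 25 translocation genes, *sec62* and *srp54*, beside 8.39% of all genes. *sec62* (Entrez 563660) was the only one among the 8 genes of the channel, Sec62, Sec63 and TRAP. Its product helps proteins enter the ER after translation and in mammals is also a receptor for the turnover of ER by autophagy. It had 288, 108 and 0 counts in WT pools and 1067, 1339 and 712 in crispant pools. In CPM the crispant pools ran from 47.4 to 106.5 and the WT pools from 0 to 30.2, with no overlap. Over all libraries its log2 fold change was 5.38 ± 2.77 (SE; limma-voom, adjusted p = 0.677). Within letter a it was 2.31 ± 0.67 (SE; limma-voom, adjusted p = 0.0165), where edgeR gave 0.0963. *sec63*, its partner at the channel, overlapped between groups, at 45.6, 13.96 and 106 CPM in WT pools and 55.0, 35.7 and 3.86 CPM in crispant pools.

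The signal recognition particle (SRP) and its receptor were represented by 7 genes. Of these, 6 had positive log2 fold changes over all libraries and 7 within letter a, beside 57.0% and 55.5% of all genes. Their summed CPM was 278, 174 and 202 in WT pools and 370, 384 and 293 in crispant pools, without overlap. In crispant replicate 3 this sum was mainly *srp54* and *srprb*, at 152 and 114 CPM, while 3 of the 7 genes were at 0. Only 1 of the 7, *srp54*, had every crispant pool above every WT pool, beside 8.39% of all genes. None was called in either fit, and at an unadjusted p under 0.05 limma-voom gave 0 over all libraries. *srp54*, the subunit that binds the signal sequence, was at 52.1, 36.2 and 12.7 CPM in WT pools and 72.4, 52.7 and 152 CPM in crispant pools. The groups did not overlap, though the lowest crispant pool was close to the highest WT pool, and the log2 fold change was 1.90 ± 1.21 (SE; limma-voom, adjusted p = 0.741). *srp72* and the receptor subunit *srprb* overlapped, at 45.3 ± 29.6 and 75.95 ± 43.4 CPM and at 50.5 ± 24.96 and 86.6 ± 23.9 CPM (SD, n = 3 each). *srp19* had 60, 320 and 1530 counts in WT pools and 425, 793 and 0 in crispant pools, so its direction was opposite in the letters.

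The signal peptidase removes the signal sequence, and 3 of its genes were in the table. *spcs2* was at 81.7 ± 3.97 CPM in WT pools and 86.2 ± 49.0 CPM in crispant pools (SD, n = 3 each). *spcs3* was at 0 in both pools of letter b, and in letter a at 11.9 and 19.2 CPM in WT and 51.1 and 68.3 CPM in the crispants. *spcs1* was at 39.3, 24.98 and 93.9 CPM in WT pools and 79.7, 92.7 and 28.5 CPM in crispant pools. For *spcs1* and *spcs2* the crispants were higher in letter a and lower in letter b, and none of the 3 genes passed in either fit.

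The oligosaccharyltransferase transfers sugar chains to proteins as they enter the ER. Over all libraries, the log2 fold change was positive for 4 and negative for 3 of its 7 genes, and 6 were positive within letter a. *rpn1*, the most abundant over the 6 libraries though below *dad1* in WT, was at 108.5, 76.2 and 52.2 CPM in WT pools and 139, 153 and 78.7 CPM in crispant pools, where only the pool of letter b fell within the WT range. The log2 fold change was 0.73 ± 0.78 (SE; limma-voom, adjusted p = 0.952). *ostc* and *dad1* were higher in the crispants in letter a and lower in letter b, and both overlapped between groups. *ostc* was at 31.8 ± 24.3 CPM in WT pools and 62.7 ± 49.8 CPM in crispant pools (SD, n = 3 each). The catalytic subunit *stt3b* and the structural subunit *rpn2* were sparse, with at most 16.04 and 11.5 CPM.

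None of the UPR transcription factors was called in either fit, and within letter a all 3 had negative log2 fold changes. *xbp1* (Entrez 140614) was at 526, 737 and 205 CPM in WT pools and 363, 505 and 447 CPM in crispant pools, with a log2 fold change of 0.25 ± 0.42 over all libraries and −0.51 ± 0.28 within letter a (SE). The splicing through which Xbp1 is activated cannot be read from 3′ counts. *atf4a* (Entrez 406514) was at 105, 145 and 50.2 CPM in WT pools and 88.0, 105 and 34.0 CPM in crispant pools, and replicate 3 was lowest in each group. *ddit3* (Entrez 561924), which encodes the stress factor Chop, was at 206, 56.0 and 105 CPM in WT pools and 36.8, 69.6 and 82.3 CPM in crispant pools. The groups overlapped for each of these genes, and limma-voom gave adjusted p-values of 0.980, 1.0 and 0.947 in that order, or 0.476, 0.717 and 0.214 within letter a.

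Among other genes of ER folding, quality control and the UPR, from a list typed for this purpose, 52 were in the table and 51 were tested. limma-voom called 0 higher and 1 lower, beside 0.595% of all genes each way, and edgeR called 0. The median log2 fold change was 0.48, or 0.585 within letter a, beside 0.36 and 0.21 over all genes. For 6 of the 51 every crispant pool lay above every WT pool and for 1 below, beside 8.39% and 5.0% of all genes. The gene that fell was *chac1* (Entrez 563855), a glutathione-degrading enzyme that in mammals is induced by Atf4 and Chop. It was at 1706, 718 and 1615 CPM in WT pools and 597, 519 and 209 CPM in crispant pools, with every crispant pool below every WT pool. The log2 fold change was −1.83 ± 0.37 (SE; limma-voom, adjusted p = 0.000793), and −0.99 ± 0.26 within letter a (SE; limma-voom, adjusted p = 0.00535), where edgeR gave 0.287.

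The value of *chac1* was negative in every setting tried, but its call varied with the test. edgeR gave an adjusted p of 0.234, limma-voom with RLE scaling 0.104, DESeq2 0.02 and limma with a trend 0.096. Leaving out WT replicate 1, WT replicate 2 or crispant replicate 2 raised the limma-voom adjusted p to 1.0, and leaving out crispant replicate 1 raised it to 0.381. *trib3*, also induced by Atf4 in mammals and named after its values were seen, was at 35.6, 82.2 and 87.9 CPM in WT pools and 38.1, 23.6 and 4.99 CPM in crispant pools, with overlap.

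**Figure D5:**
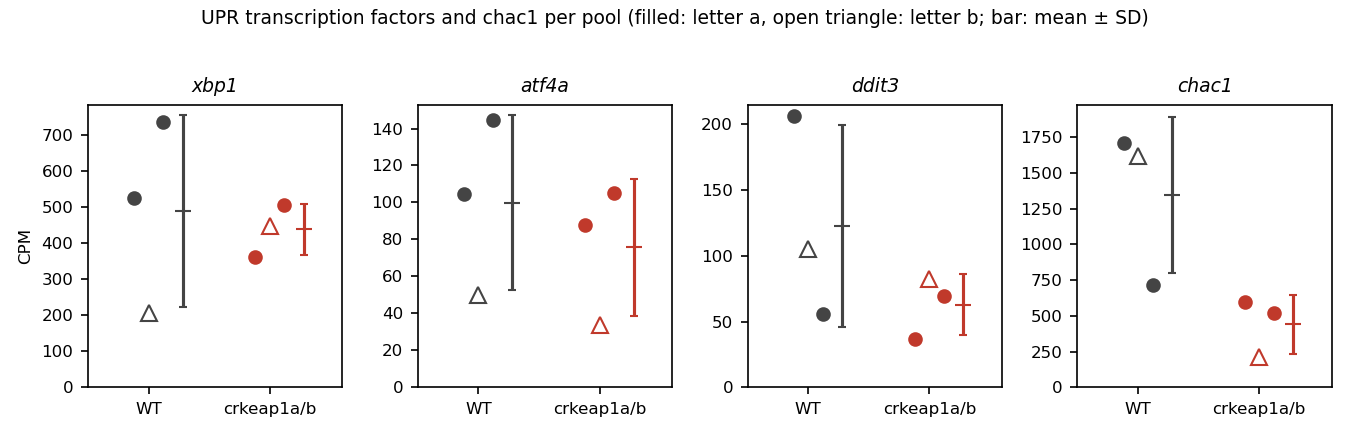
CPM of *xbp1*, *atf4a*, *ddit3* and *chac1* in each pool (filled circles: letter a, open triangles: letter b), with the mean ± SD over 3 pools. The first 3 genes overlap between groups, and *chac1* lies between 718 and 1706 CPM in WT and between 209 and 597 CPM in cr*keap1a/b*.

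Within letter a, 3 genes of that list were called higher by limma-voom, *ppib*, *fkbp2* and *ost4*, which are named after their values were seen, and *chac1* was called lower. The 3 are 5.77% of the list, beside 2.31% of all genes. *ppib* and *fkbp2* encode prolyl isomerases of the ER, and *ost4* a small subunit of the oligosaccharyltransferase. *ppib* (Entrez 406292) was at 164, 119.6 and 146 CPM in WT pools and 404, 547 and 182 CPM in crispant pools, above WT in every pool, beside 8.39% of all genes. Its log2 fold change was 1.198 ± 0.57 over all libraries (SE; limma-voom, adjusted p = 0.594) and 1.76 ± 0.34 within letter a (SE; limma-voom, adjusted p = 1.51e-05), where edgeR gave 0.0299. *fkbp2* had 227, 89 and 0 counts in WT pools and 722, 1475 and 1491 in crispant pools, with no overlap, and within letter a limma-voom gave an adjusted p of 0.0317 and edgeR 0.107. *ost4* was at 20.4 and 79.5 CPM in the WT pools of letter a and 156 and 147 CPM in the crispant pools, but at 155 and 98.4 CPM in letter b, where the order was opposite. Within letter a its adjusted p was 0.00258 in limma-voom and 0.335 in edgeR.

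The ring-shaped chaperonin TRiC, built from the *cct* genes and *tcp1*, folds actin and tubulin in the cytosol. Its 8 genes summed to 2038, 1885 and 1567 CPM in WT pools and 2629, 2405 and 2104 CPM in crispant pools, without overlap, and *cct2* and *cct6a* supplied most of the difference. *cct2* (Entrez 192326) was at 448, 351 and 164 CPM in WT pools and 708, 798 and 333 CPM in crispant pools, higher in the crispants within each letter and with replicate 3 lowest in each group. Its log2 fold change was 1.06 ± 0.44 (SE; limma-voom, adjusted p = 0.425), and 0.94 ± 0.28 within letter a (SE; limma-voom, adjusted p = 0.0207), where edgeR gave 0.155. *cct6a* (Entrez 116994) was at 357, 435 and 534 CPM in WT pools and 639.7, 526 and 899 CPM in crispant pools, with overlap (limma-voom, adjusted p = 0.741).

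The other subunits of TRiC did not all follow. *cct3* had 777, 889 and 0 counts in WT pools and 1427, 1633 and 1527 in crispant pools. Its log2 fold change of 5.24 ± 2.38 rested on the empty WT replicate 3, since it was 0.49 ± 0.40 within letter a (SE). *tcp1* was at 139.7 ± 64.2 and 200.3 ± 36.4 CPM, with overlap (SD, n = 3 each). *cct4*, *cct5*, *cct7* and *cct8* had log2 fold changes between −0.33 and 0.05.

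Beside *hsp90ab1*, the cytosolic HSP70 and HSP90 genes matched by symbol were *hsp90aa1.2*, *hspa4a* and *hspa8*. *hsp90aa1.2*, a stress-inducible HSP90, had 145, 2 and 770 counts in WT pools and 636, 403 and 1830 in crispant pools. It was higher in the crispants in each letter, but crispant replicate 2 lay below WT replicate 3, and the log2 fold change was 3.04 ± 2.41 (SE; limma-voom, adjusted p = 0.816). *hspa8*, the constitutive HSP70, was at 159.7, 91.7 and 15.1 CPM in WT pools and 31.5, 67.9 and 45.1 CPM in crispant pools. Its direction was opposite in the letters, and the limma-voom adjusted p was 1.0 over all libraries and 0.0668 within letter a. *hspa4a* was at 78.2 ± 85.7 and 78.2 ± 43.5 CPM (SD, n = 3 each).

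Other cytosolic HSP70 genes in the table did not match the symbols. One of them, *hsc70* (Entrez 393586), named after its values were seen, was at 10.9, 41.9 and 22.85 CPM in WT pools and at 0 in every crispant pool. Since every deposited row reached 0.512 CPM in at least 3 libraries, *hsc70* entered the table through its WT pools only. A call of this gene is thus not independent of that filter. DESeq2 gave an adjusted p of 0.00116, limma-voom 0.0804, edgeR 0.689 and limma with a trend 0.71, and within letter a it was 0.156 in limma-voom and 0.0852 in edgeR. *hsp70l*, also named after its values were seen, was at 0 in WT replicates 1 and 3 and in crispant replicate 3 and passed in none of these tests. Such related genes can share reads, so counts of single HSP70 genes are uncertain.

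Of the mitochondrial genes, *dnajc19*, a component of the protein import motor, was at 72.3, 29.5 and 20.7 CPM in WT pools and 124, 120.4 and 49.5 CPM in crispant pools. It was higher in the crispants in each letter but overlapped between groups, with a log2 fold change of 1.46 ± 1.09 (SE; limma-voom, adjusted p = 0.798). *dnaja3a*, *dnajc15* and *dnajc30b* were at 0 in both replicate 3 libraries. None of the 12 other J-domain genes was called by limma-voom in either fit, and 0 had an unadjusted p under 0.05 over all libraries. *dnaja2a*, the most abundant, was at 97.5 ± 29.6 and 100.3 ± 44.0 CPM (SD, n = 3 each), and *dnajc18* and *dnajc8*, with the smallest p-values among them, had at most 26.5 CPM in any library. Of the genes matched by letters only, *srpk1b* was at or below 8.94 CPM and *tcp11l2* overlapped between groups.

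A second list, of cochaperones and mitochondrial folding factors that the symbols did not match, had 32 genes in the table. Over all 6 libraries limma-voom called 0, with 2 higher and 0 lower at an unadjusted p under 0.05, beside 4.9% and 2.71% of all genes, and edgeR called 0. The median log2 fold change was 0.98, or 0.525 within letter a, beside 0.36 and 0.21 over all genes. DESeq2 called 1 of the 32, beside 1.58% of all genes called higher and 0.689% lower. It was the mitochondrial protease gene *lonp1*, named after its values were seen, at 0, 0.245 and 0 CPM in WT pools and 13.7, 9.31 and 36.3 CPM in crispant pools. With every deposited row at 0.512 CPM or more in at least 3 libraries, *lonp1* entered the table through its crispant pools only. Its call is thus not independent of that filter. Within letter a limma-voom called 1 higher, which is 3.12% of the list, near the 2.31% of all genes called higher there. This was the mitochondrial HSP10 gene *hspe1*, likewise named after its values were seen. It was at 812, 692 and 574 CPM in WT pools and 1561, 1371 and 709.5 CPM in crispant pools (limma-voom, adjusted p = 0.00315 in letter a and 0.428 over all libraries), and edgeR gave 0.0932 in letter a.

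Marker lists of other tissues were read beside these results. Of 25 hepatocyte genes, limma-voom called 2 higher and 4 lower, beside 0.595% of all genes each way. Within letter a it called 2 higher and 8 lower, beside 2.31% and 2.15% of all genes. The summed CPM of the 25 was 179700 to 274700 in WT pools and 123200 to 218000 in crispant pools. The 8 erythrocyte genes summed to 526 to 666 CPM in WT pools and 1106, 2299 and 629 CPM in crispant pools. Crispant replicate 2 also had the highest *hspa5*, *hsp90b1* and *calr3b*. Crispant replicate 3, within the WT range of the erythrocyte sum, had *calr3b* at 328, *hsp90b1* at 300 and *hspa5* at 195.5 CPM. The 10 skeletal muscle genes summed to 523 to 2393 CPM and 213 to 409 CPM, the 9 intestine genes to 1103 to 1997 CPM and 771 to 1135 CPM, and the 3 leukocyte genes to 0 to 49.8 CPM and 15.1 to 55.4 CPM, WT first. Over all 6 libraries limma-voom called 0 genes of the erythrocyte, muscle, intestine and leukocyte lists. Within letter a 2 of the 8 erythrocyte genes were called higher, beside 2.31% of all genes. Called lower there were 5 of the 10 muscle and 2 of the 9 intestine genes, beside 2.15%. All 8 erythrocyte values were positive in that fit, beside 55.5% of all genes, and all 10 muscle values were negative. Of the defining markers, *hbae1.1* and *hbbe1.1* were above 0 in every library, and the intestinal *vil1* was at 0 in WT replicate 2 and crispant replicate 3. *fabp2*, *alas2*, *ctrb1*, *mpeg1.1*, *ptprc*, *ckma* and *acta1b* were not analysed here. The part of these tissues in the results above was not tested.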

How the data were processed

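Per the study's methods and the submitters' notes, reads were trimmed (Cutadapt 1.16), aligned to danRer11 with STAR 2.7.5b and counted per gene with featureCounts 1.6.3, using a published zebrafish annotation. The deposited values are raw counts under Entrez IDs in 6637 rows, each at 0.512 CPM or more in at least 3 libraries, so less abundant genes are not described. Molecular identifiers are not mentioned, and the detection floor covers counting error only. The 135 rows without an ID held 9.82% to 13.6% of counts and stayed out of library sizes and tests. Symbols for 6426 of 6502 IDs came from the RefSeq gene table of assembly GRCz12tu, for names only. Exactly 2 rows share an ID.

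Groups followed the sample titles. Counts were filtered with filterByExpr, scaled by TMM and fitted with limma-voom (limma 3.58.1, edgeR 4.0.16, R 4.3.3), which the study names, with group as the only term. Benjamini-Hochberg adjustment ran over all genes tested, with a threshold of 0.05. Alternatives included edgeR's quasi-likelihood test, DESeq2 1.42.0, limma with a trend, other scalings and left-out libraries. limma-voom, limma with a trend, edgeR and DESeq2 were tested on simulated data with 1 dispersion for every gene and without the many zeros of replicate 3.

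The genes, roles and lists were chosen with earlier results of these data known. Named genes are, per role, the most abundant and the 2 with the smallest p-values, a list of well-known chaperones and UPR factors, and list genes called by limma-voom. Others are given as marked or to complete a role.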

Additional observations from a re-analysis of the deposited data

How the results depend on the processing

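The number of the 80 genes called higher by limma-voom, 0 over all libraries, was 1 with DESeq2, 1 in limma with a trend, 7 in the 4 libraries of letter a, 2 in edgeR on those 4, and 0 to 5 with 1 library left out. It was 0 in the other alternatives, and 0 were called lower in each of the 18. Deviations of samples with the same number correlated weakly across genes (r = 0.0099 to 0.0744 by title, 0.0451 to 0.0744 by description code). The many zeros of replicate 3 weigh on this measure, so it cannot decide whether either code pairs the pools. With a replicate block by either code 0 genes were called. The median log2 fold change of these genes stayed positive throughout (0.053 to 1.05), while that of all genes ran from −0.50 to 1.61. Of 45 genes named by rule, 25 kept 1 direction in every alternative and 20 did not, and the cause was not tested. None of the 45 was called by limma-voom over all libraries, and *calr3a*, among the 20, was called within letter a.

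In the 4 libraries of letter a, limma-voom and edgeR turned the log2 fold change to 0.76 and 0.81 for *dnajc1*, 0.81 and 0.68 for *dnajb12b*, 0.31 and 0.30 for *dnaja2a*, 0.75 and 0.63 for *sec63*, −0.51 and −0.52 for *xbp1*, 0.93 and 0.87 for *tcp11l2*, 0.965 and 0.967 for *pdia3*, 0.493 and 0.495 for *spcs2*, 1.81 and 1.17 for *srp19*, and −1.36 and −1.32 for *hspa8*. edgeR alone turned *rpn2* (−0.53) and *stt3b* (−0.028). On all libraries, edgeR turned *dnaja2a* (0.041), *xbp1* (−0.16), *rpn2* (−0.13), *pdia3* (0.022), *spcs2* (0.077) and *hspa8* (−0.88). DESeq2 turned *xbp1* (−0.15), *srpk1b* (−0.057), *rpn2* (−0.16) and *hspa8* (−0.85), and limma with a trend *dnajc1* (0.12), *pdia3* (0.20) and *hspa8* (−0.40). Library size only turned *dnaja2a* (0.16), *pdia3* (0.26) and *spcs2* (0.061), and RLE *hspa8* (−0.015). The replicate block turned *xbp1* (−0.02, by title) and *hspa8* (−0.80 by title, −0.83 by code), and the letter as covariate *hspa8* (−0.82). With 1 library left out, the range was −0.97 to 1.06 for *dnajc1*, −0.30 to 0.38 for *dnaja2a*, −0.51 to 0.61 for *xbp1*, −1.17 to 0.27 for *tcp11l2*, −2.23 to 2.65 for *srpk1b*, −3.79 to 1.56 for *dnaja3a*, −0.27 to 0.69 for *pdia3*, −0.59 to 0.49 for *spcs2*, −2.14 to 4.94 for *spcs3*, −4.99 to 0.38 for *srp19*, −0.23 to 1.55 for *hyou1*, −0.24 to 2.03 for *calr3a*, −1.11 to 0.01 for *sec61a1a*, −0.09 to 0.75 for *sec61a1b*, −0.90 to 0.26 for *atf4a*, and −1.41 to 0.85 for *hspa8*.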
